A study of Mus musculus with 10 samples.

Results

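The 10 genes described here encode coat proteins of lipid droplets and the enzymes and regulators that make or break down the triglyceride inside them: Cidec, Plin2, Plin3, Pnpla2, Abhd5, Dgat1, Dgat2, Mgll, Lipe and G0s2. They were chosen by symbol, out of 18820 genes with a probe set (a group of probes for 1 transcript region) of their own, and all 10 were found. Lipe had 2 probe sets, of which the brighter stood for the gene, and each of the other 9 had 1. Expression was measured with whole-transcript microarrays in mouse colonic organoids, which are epithelial cultures grown in Matrigel from colon crypts. Organoids of 6 male mice, 3 per genotype, were treated for 24 h with 1 µM rosiglitazone, a drug that activates the nuclear receptor PPARγ, or with 0.1% DMSO as the vehicle. The 4 groups were wild-type vehicle (n = 2 arrays, mice 42 and 47), wild-type rosiglitazone (n = 3, mice 48, 42 and 47 as replicates 1, 2 and 3), knockout vehicle (n = 2, mice 46 and 44) and knockout rosiglitazone (n = 3, mice 46, 45 and 44 as replicates 1, 2 and 3). Knockout mice (PparγΔIEC) were homozygous for Pparg with loxP sites around exons 1 and 2 and carried Cre under the villin promoter, which is active in the intestinal epithelium. The wild-type mice were littermates, the background of all animals was C57BL/6J, their age is not stated in the labels, and all cultures shared a medium with Wnt, Noggin, R-spondin and EGF. The comparisons ask what the drug and the loss of the receptor did to these genes.

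Lipid droplets are cell organelles with a core of triglyceride and a surface of phospholipid and coat proteins. The perilipins coat the surface, and CIDEC, known best from fat cells, lets droplets exchange lipid and grow. DGAT1 and DGAT2 perform the last step of triglyceride synthesis. The lipase PNPLA2 (also called ATGL), with its activator ABHD5 and its inhibitor G0S2, starts the breakdown that LIPE and MGLL carry on. Intestinal epithelial cells store absorbed fat in such droplets for a time, and PPAR receptors are known to act on several of these genes in fat and liver.

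PPAR receptors bind DNA with their partner RXR at a direct repeat spaced by 1 base, so the region before the start of each gene was searched for it. The search used AGGTCA, any 1 base (N) and AGGTCA again, on both strands of the 250 bases before each start site in RefSeq (GRCm38.p6), counting mismatches over the 12 fixed letters. The table held 11 start sites for 8 of the 10 genes, with none for Dgat1 and Dgat2. The closest match of any of them lay before Plin2, with 2 mismatches, from base -225 to -213. Of all 32851 RefSeq start sites, 3.24% had a match at least that close. Before Cidec the closest match, from base -214 to -202 of its outer start site, had 3 mismatches, as had those of Plin3 and of the inner Lipe start site, and 21.3% of all start sites came that close. These are descriptions of letters, not binding sites. The 92 bases before Plin2 that lie outside annotated genes (chr4:86670218-86670309, minus strand) are shown because Plin2 has the closest match, followed by the matches of the other 3, all in the gene's own direction and with the match in capitals.
Plin2: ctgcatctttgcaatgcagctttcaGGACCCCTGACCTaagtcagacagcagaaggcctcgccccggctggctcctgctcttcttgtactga
Cidec: TGCCCTCTTGCCT
Plin3: GGCCCTCTGTCCT
Lipe: TGAACTCTGGGCT

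The arrays carried the epithelial identity their labels give. All 10 epithelial markers lay above 3.60, the median of all probe-set means and used here as the mark of a bright probe set, with Epcam at 10.44 to 11.05 and Vil1 at 9.65 to 10.07. All values are RMA expression on the log2 scale. None of the 9 measured adipocyte markers was bright: Adipoq read 2.37 to 3.00, Plin1 2.49 to 2.76 and Fabp4 2.05 to 2.58, and the mean of the list ran from 2.39 to 2.63 over all arrays. Of the fibroblast, endothelial and macrophage lists 1 of 8, 0 of 6 and 2 of 10 genes were bright (Col1a1, Cd68 and Cd14), with Ptprc at 2.39 to 2.79. The mean of 9 goblet cell genes varied most, from 3.56 in the arrays of mouse 46 to 7.54 in the rosiglitazone array of mouse 45. The first principal component set the arrays of mouse 46 apart. Pparg, read by 1 probe set, lay at 8.34 to 8.41 in wild-type vehicle, 7.59 to 8.30 in wild-type rosiglitazone, 8.47 to 8.58 in knockout vehicle and 7.37 to 8.78 in knockout rosiglitazone. Where its probes lie is not stated in the labels and only exons 1 and 2 were floxed, so this probe set does not check the genotype, and each genotype difference below rests on the labels. In whole organoids, more cells of a type and more RNA per cell cannot be told apart.

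Plin2, Cidec and Dgat2 varied most among the members, and largely in the same arrays. They were highest in the wild-type rosiglitazone arrays of mice 42 and 47, while that of mouse 48 stayed near or below the wild-type vehicle level. All knockout-labelled arrays lay below those of treated mice 42 and 47. For Cidec, however, the treated knockout-labelled array of mouse 46 (5.17) lay above the other wild-type arrays. With all arrays no member passed the test in any of the 5 comparisons (limma, Benjamini-Hochberg adjustment over 23099 probe sets, threshold 0.05). Each of the 10 arrays was also left out in turn. In 1 of these fits, that without the array of mouse 48, Plin2 and Dgat2 passed as lower in knockout-labelled organoids under rosiglitazone. That array reads lowest of its group for Plin2, Dgat2 and Cidec, so leaving it out widens their differences by construction, and it was singled out after these values were seen.

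**Figure D1:**
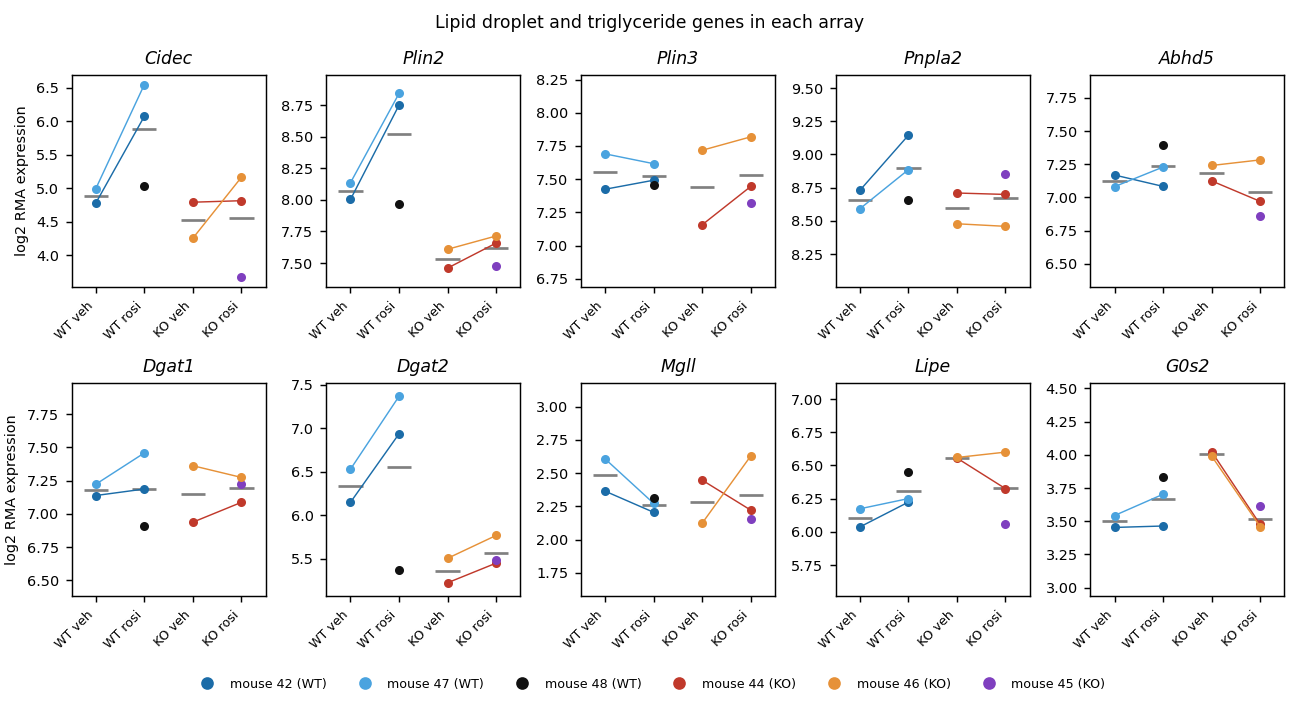
Log2 RMA expression (vertical axes, each spanning at least 1.6 units) of the 10 genes in the 4 groups, with 1 point per array, grey bars at group means and lines joining the arrays of 1 mouse; WT is wild type, KO the knockout label, veh vehicle and rosi rosiglitazone. Plin2, Cidec and Dgat2 are highest in rosiglitazone in mice 42 and 47, while the black point of mouse 48 lies at 7.97, 5.04 and 5.37.

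Plin2, the perilipin found on droplets of most cell types, read 8.00 and 8.14 in wild-type vehicle and 7.97, 8.75 and 8.84 in wild-type rosiglitazone. The knockout-labelled readings were 7.61 and 7.46 for vehicle, and 7.71, 7.48 and 7.66 under the drug. Every wild-type array lay above every array labelled knockout, in either treatment. Groups were apart in this direction for 16.1% of probe sets under vehicle and for 4.47% under rosiglitazone. The share over both treatments together was not counted. Under rosiglitazone Plin2 was lower in knockout-labelled organoids by a difference of -0.90 (SE 0.21, 95% interval -1.36 to -0.45, n = 3 and 3), which did not pass limma's test (adjusted p = 0.526). It came to -1.18 without wild-type rosiglitazone replicate 1, of mouse 48 (limma, adjusted p = 0.0174), and to -1.11 (adjusted p = 0.0462) in the 4 donors that have a pair of arrays, a subset that also lacks mouse 48, and over all alternatives the adjusted p ran from 0.0174 to 1. Under vehicle the difference was -0.54 (SE 0.25, 95% interval -1.09 to 0.02, n = 2 and 2, limma, adjusted p = 0.855). In order of group means, knockout vehicle (7.53) and knockout rosiglitazone (7.62) were followed by wild-type vehicle (8.07) and wild-type rosiglitazone (8.52), and limma separated neither the first pair nor the last. Knockout rosiglitazone and wild-type vehicle were not compared.

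The drug response of Plin2 in wild type was 0.45 (SE 0.23, 95% interval -0.06 to 0.96, n = 3 and 2) and in knockout-labelled organoids 0.08 (SE 0.23, n = 3 and 2), each with an adjusted p of 1 by limma. Within single mice, rosiglitazone minus vehicle was 0.75 (mouse 42) and 0.71 (mouse 47) in wild type, against 0.20 and 0.11 in knockout-labelled mice 44 and 46. The difference between the responses was -0.37 (SE 0.33) over all arrays and -0.57 (SE 0.16) with the donor as a fixed block, with adjusted p of 1 and 0.957 by limma.

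Cidec read 4.78 and 5.00 in wild-type vehicle and 5.04, 6.08 and 6.55 in wild-type rosiglitazone, so the treated arrays lay above the vehicle arrays, by little for mouse 48. Knockout-labelled organoids gave 4.25 and 4.79 with vehicle and 5.17, 3.68 and 4.82 with the drug, where the treated arrays spanned both vehicle values. Over all arrays the drug response was 1.00 (SE 0.47, 95% interval -0.03 to 2.04) in wild type and 0.03 (SE 0.47) in knockout-labelled organoids. The difference between the responses was -0.97 (SE 0.66, 95% interval -2.44 to 0.49). None of these passed limma's test. Within mice the drug difference was 1.30 (mouse 42) and 1.56 (mouse 47) in wild type, and 0.02 and 0.91 in knockout-labelled mice 44 and 46. Mouse 46 thus had a positive Cidec difference, smaller than that of either wild-type mouse, while mouse 44 had almost none. Under rosiglitazone the genotype difference was -1.34 (SE 0.42, 95% interval -2.26 to -0.41, n = 3 and 3, limma, adjusted p = 0.915), and under vehicle -0.36 (SE 0.51, 95% interval -1.50 to 0.77). The lowest Cidec reading, 3.68, was that of knockout rosiglitazone replicate 2 of mouse 45, the array with the highest goblet cell mean (7.54, against 3.56 and 5.69 in the rest of its group). The part of goblet cell content in this value was not tested. Without that array the difference under rosiglitazone was -0.90, and without the array of mouse 48 it was -1.76 (limma, adjusted p = 0.311).

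Plin3, a perilipin that also occurs free in the cytosol, differed little between the groups. It read 7.42 and 7.69 in wild-type vehicle, 7.45, 7.49 and 7.62 in wild-type rosiglitazone, 7.72 and 7.16 in knockout vehicle and 7.82, 7.32 and 7.45 in knockout rosiglitazone. All 4 groups overlapped, and the arrays of mouse 46 were the highest. The genotype difference under rosiglitazone was 0.01 (SE 0.18), with a 95% interval of -0.39 to 0.40. That interval leaves out a difference of the size of Plin2 (-0.90), but Plin3 and Plin2 were not tested against each other. The drug response in wild type was -0.04 (SE 0.20, 95% interval -0.48 to 0.40).

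Dgat2, which adds the last acyl chain to diacylglycerol at the endoplasmic reticulum and the droplet, had the largest spread of any member within wild-type rosiglitazone (SD 1.05, n = 3). It read 5.37 in mouse 48 but 6.94 and 7.37 in mice 42 and 47, around the wild-type vehicle arrays at 6.15 and 6.53. Knockout-labelled organoids gave 5.50 and 5.22 with vehicle and 5.77, 5.48 and 5.45 with the drug. The reading of mouse 48 therefore lay among those of knockout-labelled mice, and every other wild-type array lay above all of these. The genotype difference was -0.98 (SE 0.49, 95% interval -2.07 to 0.12, n = 2 and 2, limma, adjusted p = 0.855) under vehicle and -0.99 (SE 0.40, 95% interval -1.89 to -0.10, n = 3 and 3, adjusted p = 0.999) under rosiglitazone. Without the array of mouse 48 the latter was -1.59 (SE 0.19, limma, adjusted p = 0.027), in the 4 donors with a pair of arrays it was -1.55 (adjusted p = 0.078), and over all alternatives its adjusted p ran from 0.027 to 1.

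The Dgat2 drug response depended on the same array. Over all wild-type arrays it was 0.22 (SE 0.45, 95% interval -0.78 to 1.22), but within mice 42 and 47 it was 0.79 and 0.84, and the fit with the donor as a fixed block gave 0.81 (SE 0.11, limma, adjusted p = 0.283, from 0.283 to 1 over all alternatives). In knockout-labelled mice 44 and 46 it was 0.23 and 0.26. Without wild-type rosiglitazone replicate 3, of mouse 47, the response in wild type turned to -0.18.

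Dgat1, the other enzyme of this step and unrelated to DGAT2 in protein family, read 7.14 and 7.22 in wild-type vehicle, 6.91, 7.19 and 7.46 in wild-type rosiglitazone, 7.36 and 6.94 in knockout vehicle and 7.27, 7.23 and 7.09 in knockout rosiglitazone. Its groups overlapped throughout. The genotype difference was -0.03 (SE 0.20) under vehicle and 0.01 (SE 0.16, 95% interval -0.35 to 0.37) under rosiglitazone. That interval leaves out a value like the -0.99 of Dgat2, whose own interval (-1.89 to -0.10) overlaps it. The genes were not tested against each other.

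**Figure D2:**
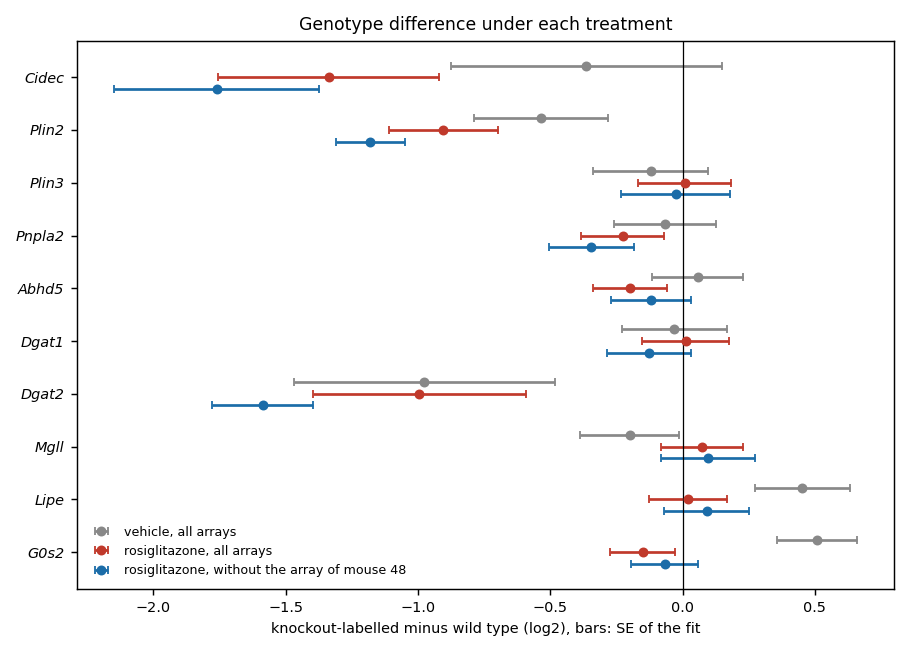
Differences of knockout-labelled minus wild-type organoids (horizontal axis, log2) for the 10 genes under vehicle, under rosiglitazone, and under rosiglitazone without the wild-type array of mouse 48; points are limma estimates and bars their SE. Without that array Plin2 moves from -0.90 to -1.18, Dgat2 from -0.99 to -1.59 and Cidec from -1.34 to -1.76, while Plin3 and Dgat1 stay near 0.

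Of the genes of triglyceride breakdown, Pnpla2 and Abhd5 differed less between the genotypes than Plin2, Cidec and Dgat2. Pnpla2, the lipase that removes the first fatty acid, read 8.73 and 8.59 in wild-type vehicle and 8.66, 9.14 and 8.89 in wild-type rosiglitazone, with mouse 48 again the lowest of its group. Knockout-labelled organoids gave 8.48 and 8.71 with vehicle and 8.46, 8.85 and 8.70 with the drug. Within mice the drug difference was 0.42 (mouse 42) and 0.29 (mouse 47) in wild type, and -0.01 and -0.02 in knockout-labelled mice 44 and 46. Over all arrays it was 0.24 (SE 0.18, 95% interval -0.15 to 0.63) in wild type and 0.08 (SE 0.18) in knockout-labelled organoids. Abhd5, the activator of this lipase, stayed between 6.86 and 7.39 in all arrays, with 95% intervals for its drug response of -0.24 to 0.46 in wild type and -0.49 to 0.20 in knockout-labelled organoids.

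G0s2, the inhibitor of the lipase, was the member that stood apart in knockout vehicle. It read 3.99 and 4.02 there, against 3.45 and 3.54 in wild-type vehicle, 3.83, 3.46 and 3.70 in wild-type rosiglitazone and 3.46, 3.61 and 3.48 in knockout rosiglitazone. The mean of the colonocyte markers also separated the vehicle groups, at 6.70 and 6.92 in knockout vehicle against 7.28 and 7.68 in wild-type vehicle, and read 7.03 to 7.36 in knockout rosiglitazone. Its part in the vehicle differences of G0s2, Lipe, Plin2 and Dgat2 was not tested. The G0s2 readings of the vehicle arrays labelled knockout were the highest of all 10, and the treated arrays of the same mice (3.46 and 3.48) lay between the wild-type vehicle arrays. The genotype difference under vehicle was 0.51 (SE 0.15, 95% interval 0.17 to 0.85, n = 2 and 2, limma, adjusted p = 0.846) and the drug response in knockout-labelled organoids -0.49 (SE 0.14, 95% interval -0.80 to -0.18, n = 3 and 2, limma, adjusted p = 1), with -0.55 and -0.53 within mice 44 and 46. In wild-type mice 42 and 47 it was 0.01 and 0.16, and the difference between the responses was -0.66 (SE 0.20, 95% interval -1.09 to -0.23, limma, adjusted p = 1). The mean of this probe set, 3.66, lies just above the mark of a bright probe set (3.60). Both wild-type vehicle arrays and the treated arrays of mice 42, 44 and 46 lie below that mark.

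Lipe, the hormone-sensitive lipase that acts on diacylglycerol, showed a like order under vehicle. It read 6.04 and 6.17 in wild-type vehicle and 6.56 in both knockout vehicle arrays, 6.45, 6.22 and 6.25 in wild-type rosiglitazone and 6.60, 6.06 and 6.33 in knockout rosiglitazone. The knockout vehicle arrays lay above those of wild-type vehicle by 0.45 (SE 0.18, 95% interval 0.05 to 0.85, n = 2 and 2, limma, adjusted p = 0.855), and under rosiglitazone the difference was 0.02 (SE 0.15). Its dimmer probe set read 4.65 and 4.68 in wild-type vehicle and 4.83 and 4.88 in knockout vehicle, the same order, and correlated with the brighter one at r = 0.63 over the 10 arrays. In wild-type rosiglitazone the dimmer probe set read 5.20, 4.81 and 4.60, the last of these (mouse 47) below both wild-type vehicle arrays.

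Mgll, which releases the last fatty acid from monoacylglycerol, was dim in every array (2.12 to 2.63). It was the only member with a mean below the level of a bright probe set. Its drug response was -0.22 (SE 0.17, 95% interval -0.60 to 0.16) in wild type and 0.05 (SE 0.17) in knockout-labelled organoids.

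**Figure D3:**
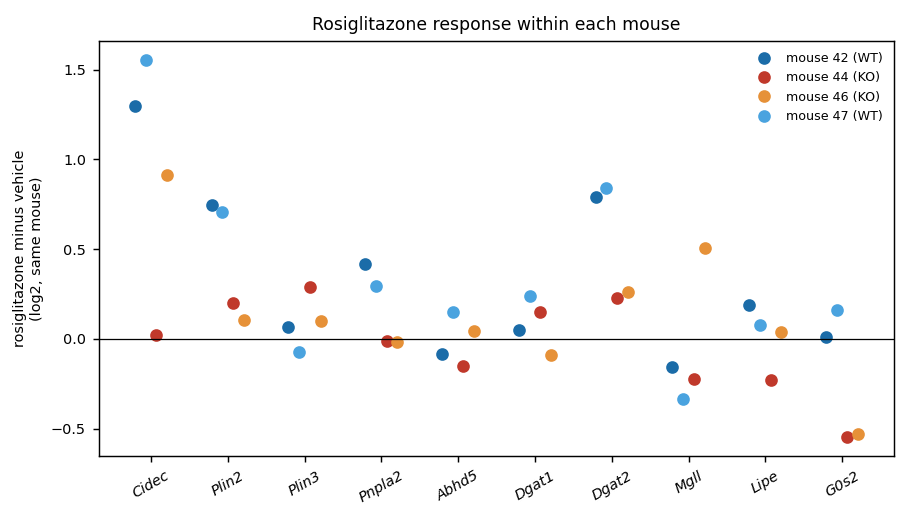
Rosiglitazone minus vehicle within each mouse that gave both arrays (vertical axis, log2) for the 10 genes; blue points are wild-type mice 42 and 47, red and orange points knockout-labelled mice 44 and 46. Plin2, Dgat2, Cidec, Pnpla2, G0s2 and the brighter probe set of Lipe lie higher in both wild-type mice than in either knockout-labelled mouse. The share of all probe sets with this order was not counted. G0s2 lies at -0.55 and -0.53 in the knockout-labelled mice.

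As a group, 8 of the 10 genes had a positive drug difference in wild type (median 0.19, against 0.01 over all probe sets) and 7 of 10 in knockout-labelled organoids (median 0.05, against -0.01). Of all probe sets, 54.3% and 46.4% had a positive difference. By limma's adjusted p, 0 members and 0% of probe sets were called for either response, and at an unadjusted p under 0.05 there were 0 members in wild type, where 0.991% of probe sets reached it, and 1 in knockout-labelled organoids, G0s2, where 3.06% did. In wild type every treated array lay above every vehicle array for 2 members, Cidec and, by its brighter probe set only, Lipe (8.65% of probe sets), and below for 1, Mgll (6.78%). In knockout-labelled organoids this held for 0 members upward (5.81%) and for 1 downward, G0s2 (7.93%). Both wild-type mice with 2 arrays had a positive difference for 7 of 10 genes, a pattern found in 25.3% of probe sets, and both knockout-labelled mice for 4 of 10 (24.4%). Lipe entered the wild-type count by its brighter probe set, and its dimmer one read lower with the drug in mouse 47. The count of 8 over all wild-type arrays includes Dgat1 at 0.004, and it ran from 6 to 9 when single arrays were left out. For knockout-labelled organoids the count of 7 became 4 when either the treated or the vehicle array of mouse 46 was left out. The difference between the responses was called for 0 members (0% of probe sets) and reached an unadjusted p under 0.05 for 1, G0s2 (2.32%).

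Between the genotypes, 3 of 10 genes were higher in knockout-labelled organoids under vehicle (median -0.09, all probe sets 0.03) and 4 of 10 under rosiglitazone (median -0.17, all probe sets 0.00). The latter count was 0 without both arrays of mouse 46 or without its treated array alone, and 2 without the treated array of mouse 48 or that of mouse 42. The former became 5 without knockout vehicle replicate 2 or wild-type vehicle replicate 2. By limma's adjusted p, 0 members were called under vehicle (0% of probe sets; 2 members and 5.69% of probe sets at an unadjusted p under 0.05) and 0 under rosiglitazone (0.0216% of probe sets, with 0.00433% higher and 0.0173% lower; 3 members and 4.81% at an unadjusted p under 0.05). Without the array of mouse 48, 2 of 10 members were called lower under rosiglitazone, where 0.0909% of probe sets were and 0.0996% were called in either direction. In the 4 donors with a pair of arrays 1 of 10, Plin2, was called lower, where 0.0563% of probe sets were and 0.0693% were called in either direction. Under vehicle these subsets called 0 members, and each called 0.026% of probe sets, of which 0.0173% of all were lower without mouse 48 and 0.0216% in the 4 donors. Groups did not overlap under vehicle for Lipe and G0s2 upward (23% of probe sets) and Plin2 and Dgat2 downward (16.1%), and under rosiglitazone for 0 members upward (4.22%) and for Plin2 downward (4.47%). The comparisons share groups, so their values are not independent of each other.

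The array of mouse 48, on which these calls turn, came from a mouse without a vehicle array. Its mean over 12 colonocyte markers was 6.82 and over the goblet cell genes 3.89, each the lowest of its group, in which mice 42 and 47 read 6.96 and 7.51 for colonocytes and 4.85 and 4.60 for goblet cells. Among PPAR targets outside the droplet, Angptl4, a secreted lipase inhibitor, read 2.89 in mouse 48 against 4.88 and 5.93 in mice 42 and 47, with wild-type vehicle at 3.44 and 3.52. Pdk4, a kinase that restrains glucose oxidation, read 2.34 against 3.80 and 4.26, with wild-type vehicle at 2.45 and 2.54. Both genes are named after their values were seen, and for both of them this array lay below both wild-type vehicle arrays. The same held for further genes of the list, among them Acot2 and Cpt1a, also named after their values were seen. In mouse 48 Acot2 read 3.99 (wild-type vehicle 5.16 and 5.47) and Cpt1a 8.36 (8.49 and 8.58). Other genes of the list went the other way, among them Acaa1b, Fabp2, Cyp4a14 and Tsc22d3. How many genes lay on each side was not counted. In mouse 48 Acaa1b read 3.53 (wild-type vehicle 3.06 and 2.91) and Fabp2 3.31 (2.56 and 2.29). Cyp4a14 read 2.89 there (2.25 and 2.06) and Tsc22d3 5.28 (4.96 and 4.99). In that array Acaa1b, Fabp2 and Cyp4a14 lay below the mark of a bright probe set (3.60). Cyp4a14 read 2.17 and 2.07 in mice 42 and 47, near wild-type vehicle. Whether the organoids of mouse 48 received the drug as labelled, and the part of cell composition in their readings, were not tested.

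Plin2, Dgat2 and Cidec also varied together from array to array. Over the 10 arrays Plin2 correlated with Dgat2 at r = 0.94 (Spearman's rho 0.84) and with Cidec at r = 0.89 (rho 0.75), and Cidec with Dgat2 at r = 0.80 (rho 0.52). These are descriptions, since 8 of the arrays come in pairs of the same mouse. Without the 2 treated arrays of mice 42 and 47, the farthest from the median of Plin2, r was 0.77 with Dgat2 and 0.57 with Cidec. Of the 45 pairs among the 10 genes these 3 had the highest correlations. Next came Plin3 with Dgat1 (0.67), and 17 pairs were negative, the lowest being Pnpla2 with Lipe (-0.56).

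**Figure D4:**
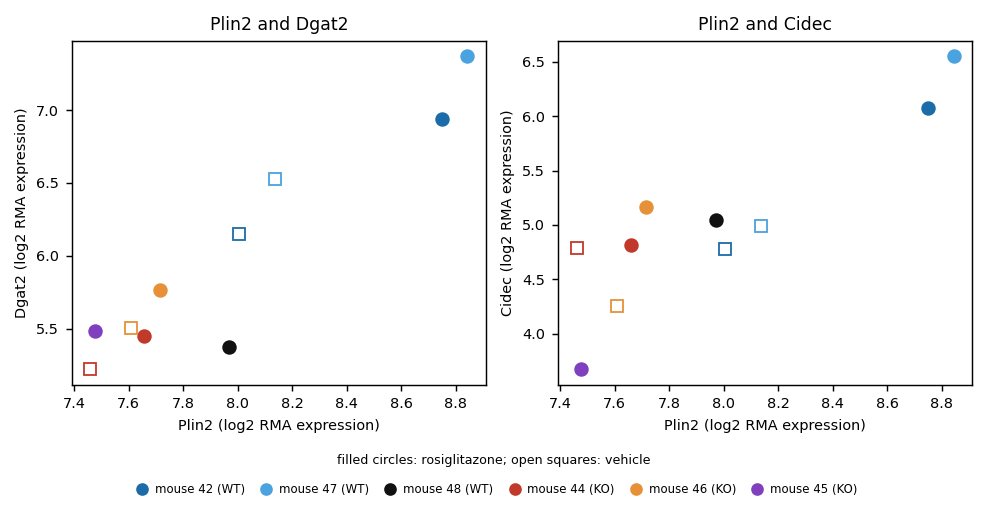
Log2 RMA expression of Dgat2 (left) and Cidec (right) against Plin2 in the 10 arrays, with filled circles for rosiglitazone, open squares for vehicle and colours for mice. The treated arrays of mice 42 and 47 lie at the upper right, and that of mouse 48 (black) at 7.97 for Plin2 with 5.37 for Dgat2 and 5.04 for Cidec.

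Among 10473 genes with a bright probe set, the 5 whose levels followed Cidec most closely over the arrays were Mboat2, a phospholipid acyltransferase (r = 0.98), Dennd4c (0.98), Parm1 (0.94), Slc6a9, a glycine transporter (0.94), and Pgm1 (0.94). For Plin2 they were Scarb2, a lysosomal membrane protein (r = 0.97), Dbi, the acyl-CoA-binding protein (0.96), Mgst3, a microsomal glutathione transferase (0.95), 4931406C07Rik (0.95) and Ech1, an enzyme of fatty acid oxidation (0.95). Mboat2 read 4.59 to 4.67 in wild-type vehicle, 4.77 to 5.89 in wild-type rosiglitazone, 4.11 to 4.18 in knockout vehicle and 3.65 to 4.65 in knockout rosiglitazone. Mgst3 read 8.19 to 8.22, 8.12 to 9.35, 7.30 to 7.70 and 7.71 to 7.83 in the same groups. As with Plin2, all wild-type arrays lay above all knockout-labelled arrays for Mgst3. Since Mgst3 was picked by its correlation with Plin2 over these same arrays, the shared separation adds no support. The share of all probe sets with such a separation was not counted. The rank of these genes rests on 10 arrays of 6 mice.

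Of the other genes of droplets and triglyceride metabolism, 53 of 62 listed had a probe set of their own, and 0 passed limma's adjusted p in either direction in any comparison. In wild type 29 of 53 had a positive drug difference (median 0.01), in knockout-labelled organoids 19 (median -0.08). Under vehicle 36 of 53 were higher in knockout-labelled organoids (median 0.08) and under rosiglitazone 24 (median -0.02). Over all probe sets 54.3%, 46.4%, 55.6% and 50.5% were positive in these comparisons. At an unadjusted p under 0.05 there were 0, 0, 3 and 3 of the 53, against 0.991%, 3.06%, 5.69% and 4.81% of all probe sets, so the counts of 3 are near the background. For the difference between the responses there were 0 (2.32% of probe sets), and 18 of 53 were positive (median -0.07, 44.6% of probe sets).

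The genes of this list with the smallest p are given as values only, since their number is near the background. Hilpda, a small droplet protein that inhibits PNPLA2, read 5.73 to 5.94 in wild-type vehicle, 5.52 to 6.97 in wild-type rosiglitazone, 5.34 to 5.64 in knockout vehicle and 4.91 to 5.74 in knockout rosiglitazone. Its genotype difference under rosiglitazone was -1.06 (SE 0.34, limma, adjusted p = 0.924), followed in that comparison by Lpl (0.40, SE 0.13), which was dim, and Abhd6, a monoacylglycerol lipase (-0.34, SE 0.14). Under vehicle the genotype differences of smallest p were 0.54 (SE 0.19) for Ces1d, -1.59 (SE 0.56) for Gpd1, which makes the glycerol 3-phosphate backbone, and 0.32 (SE 0.14) for Mogat1. Gpd1 read 5.79 and 5.88 in wild-type vehicle but 3.65 and 4.83 in knockout vehicle, while Ces1d and Mogat1 stayed below 2.49 in these groups. The same 3 genes led the difference between the responses, at -0.51 (SE 0.24) for Ces1d, 1.20 (SE 0.72) for Gpd1 and -0.38 (SE 0.19) for Mogat1. For the drug in wild type they were Gpihbp1 (-0.43, SE 0.19), Mest (0.31, SE 0.16) and Lipg (0.44, SE 0.24), and in knockout-labelled organoids Ldah (0.26, SE 0.14), Tmem159 (0.26, SE 0.14) and Cideb (-0.43, SE 0.24).

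The list of PPAR target genes outside the droplet shares Lpl and Aqp7 with the list of droplet and triglyceride genes, so these enter the counts of both. Of its 29 measured genes, 22 had a positive drug difference in wild type (median 0.12, 54.3% of probe sets). In knockout-labelled organoids 18 had one (median 0.07, 46.4%). For the difference between the responses 8 were positive and 21 negative (median -0.09; 44.6% of probe sets positive). In knockout-labelled organoids 17 of 29 were higher under vehicle (median 0.06; 55.6%) and 11 under rosiglitazone (median -0.06; 50.5%). By limma's adjusted p 0 passed in any comparison. At an unadjusted p under 0.05 there were 3 for the drug in wild type (0.991% of probe sets), 0 in knockout-labelled organoids (3.06%), 1 for the difference between the responses (2.32%), 0 between genotypes under vehicle (5.69%) and 6 under rosiglitazone (4.81%).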

How the data were processed

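The authors deposited RMA expression on the log2 scale, per the submitters' processing notes, for 35556 probe sets in 10 arrays. As a method RMA includes background correction, normalization between arrays and summary of probes; its version, the chip definition and the build are not given in the sources used here. Arrays hold no read depth, so their number limits precision. The 23099 probe sets with a gene annotation were tested with limma 3.58.1 in R 4.3.3 (1 mean per group, all 10 arrays, eBayes, two-sided, Benjamini-Hochberg adjustment, threshold 0.05). Symbols were updated through Entrez identifiers, and the brightest probe set with a single symbol stood for a gene. The script was tested on simulated data. The donor pairs treated and vehicle arrays, since the labels name the mouse; differences between 2 mice correlated across treatments at r = 0.44 (mice 42 and 47) and 0.49 (mice 44 and 46). Alternatives were the donor as a random or fixed block (statmod 1.5.0), the 4 mice with both treatments, centred arrays, bright probe sets only, the mean of the probe sets of Lipe and leaving out arrays. Named genes are the 10 members, Pparg, markers, the 3 pathway genes of smallest p where none passed, and the 5 genes closest to Cidec and Plin2. Members, lists and tests were chosen with earlier results of these data known.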

Additional observations from a re-analysis of the deposited data

Results flagged for a closer look

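For Pnpla2 the drug difference was positive in both wild-type mice with 2 arrays and negative in both knockout-labelled ones, so that the response of the latter was lower by a difference of -0.37 over these mice. The knockout-labelled values were within 0.02 of 0. For G0s2 the signs were split in the same way, with a difference of -0.62, though the value of wild-type mouse 42 was only 0.01. Over all arrays the test of the difference between responses gave -0.16 (SE 0.25) for Pnpla2 and -0.66 (SE 0.20) for G0s2, both with an adjusted p of 1 by limma. This split of signs held for 2 of 10 members and for 6.01% of all 23099 probe sets, and its opposite for 0 members and 5.81%.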

How the results depend on the processing

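In wild type 0 probe sets passed for the drug under every alternative. The same holds for the difference of responses. In knockout-labelled organoids 1 passed under the random donor block, and 0 otherwise. Between genotypes under vehicle, 0 passed with all arrays, 1 with the random block, 1 with centred arrays, 6 on the 4 mice with both treatments and 0 to 6 when single arrays were left out (6 without the treated wild-type array of mouse 48). Under rosiglitazone 5 passed with all arrays, 16 on the 4 mice, 1 without both arrays of mouse 46 (chosen after seeing the data) and 1 to 23 when single arrays were left out (23 without that of mouse 48). The causes were not tested.

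With the donor as a random or fixed replicate block no member's call changed. In the 4 donors with a pair of arrays Plin2 passed under rosiglitazone (-1.11, adjusted p = 0.0462), and without the array of mouse 48 Plin2 and Dgat2 did. These values turned sign. With the random block they were -0.025 for Dgat1 in the difference of responses, and 0.026 for Pnpla2, -0.016 for Abhd5 and 0.037 for Dgat1 between genotypes under vehicle. With the fixed block, or on the 4 mice, they were -0.015 for Pnpla2 in the knockout-labelled response and -0.11 for Dgat1 in the difference of responses, and on the 4 mice -0.14 for Dgat1 under rosiglitazone. Centring gave 0.054 for Dgat2 in the difference of responses, and the mean of the Lipe probe sets -0.016 under rosiglitazone. Without mouse 46 the knockout-labelled response was -0.55 for Cidec and -0.26 for Mgll, and the difference of responses 0.022 for Dgat2 and -0.035 for Mgll. The genotype difference was then 0.049 for Pnpla2 and -0.00040 for Abhd5 under vehicle, and -0.14 for Plin3, -0.028 for Dgat1, -0.073 for Mgll and -0.12 for Lipe under rosiglitazone.

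Leaving out single arrays gave ranges across 0 as follows. For the drug in wild type they were -0.17 to 0.10 for Plin3, -0.13 to 0.14 for Dgat1 and -0.18 to 0.81 for Dgat2. In knockout-labelled organoids they were -0.28 to 0.47 for Cidec, -0.19 to 0.37 for Plin3, -0.039 to 0.19 for Pnpla2, -0.17 to 0.26 for Dgat1 and -0.11 to 0.21 for Mgll. For the difference of responses they were -0.15 to 0.41 for Plin3, -0.17 to 0.25 for Dgat1 and -0.61 to 0.39 for Dgat2. Between genotypes they were -0.40 to 0.16 for Plin3, -0.18 to 0.049 for Pnpla2, -0.00040 to 0.12 for Abhd5 and -0.24 to 0.18 for Dgat1 under vehicle, and -0.14 to 0.11 for Plin3, -0.13 to 0.15 for Dgat1, -0.073 to 0.16 for Mgll and -0.12 to 0.15 for Lipe under rosiglitazone. A fixed donor block could not be fitted between genotypes, since each mouse has 1 genotype, and Mgll has no value among bright probe sets. With 2 or 3 arrays a group, differences of the size seen here for Plin2 under vehicle could not be told from 0.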
